A study of Homo sapiens with 16 samples.

Results

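The genes described here are 41 genes that human cells use to pass from G1 into S phase and to copy their DNA. They were named by symbol, and all 41 were found in the deposited table of 60671 genes through their Ensembl identifiers. They were followed in HEK293 cells, an established line of embryonic kidney origin that carries the adenovirus E1A and E1B genes. They fall into 8 genes of G1 control, 3 activating E2F factors, 4 genes of origin recognition and licensing, 7 of the MCM helicase with MCM10, 4 of CDC45 and GINS, 6 of polymerases, clamp and clamp loader, 5 of deoxynucleotide supply and uracil removal, and 4 companions of S phase.

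In the cell cycle, D-type cyclins with CDK4 and E-type cyclins with CDK2 phosphorylate the RB protein, which releases E2F transcription factors, and these switch on most of the genes named here. ORC, CDC6 and CDT1 then load the MCM helicase on origins in G1, and CDC45 and GINS turn it into an active helicase in S phase. PCNA and its loader hold the polymerases on DNA, while ribonucleotide reductase and thymidylate synthase supply deoxynucleotides. E1A binds RB and sets E2F free, so in HEK293 cells this pathway is known to run with weakened RB control.

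The study gave 16 libraries in 8 groups of 2. In 6 of the groups, T1, T2, CU1, CU2, CU1ENC and CU1ENU, cells had received a pcDNA3.0 plasmid with a cloned transcript of LINC01016, a long non-coding RNA gene, after which the group is named. Another group had received the empty vector, and the last was the parental line, for which no transfection is named. All groups grew with 10% fetal bovine serum, and transfected cells received 5 µg of plasmid with a lipid reagent in 60 mm plates, 48 hours before RNA was taken; whether the parental cells saw the lipid reagent is not given in the sources used here, so plasmid, insert-free backbone, lipid and handling cannot be told apart in a comparison with parental cells. The share of cells that took up plasmid is not given in the sources used here.

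Library totals ran from 15040770 to 17255935 counts. LINC01016 had 40405 to 192244 counts in the 12 libraries with a transcript, against 1 and 0 counts with the empty vector and 0 in both parental libraries; these counts are per gene and do not tell one transcript from another. Of 8 genes taken as HEK293 features, all were counted in every library, among them VIM, KRT8 and LHX1. Of 21 markers of fibroblasts, blood, endothelium and hepatocytes, PTPRC, CD3E, MPO, HBB, THY1 and TTR never passed 3 counts. COL1A1 lay between 35.7 and 50.2 CPM (counts scaled to library size) and CD14 between 1.08 and 4.50 CPM. LUM lay between 2.50 and 8.85 CPM and COL3A1 between 0.863 and 13.6 CPM. The highest counts of VWF and PDGFRB were 28 and 19. The summed HEK293 features lay between 2503 and 3004 CPM in transfected libraries, against 2160 and 2422 CPM in parental ones. The summed blood list lay between 1.97 and 4.63 CPM in transfected libraries, against 1.32 and 1.54 CPM in parental ones. The summed fibroblast list lay between 43.8 and 56.7 CPM in transfected libraries, against 58.7 and 59.4 CPM in parental ones. The part of these sums in the differences below was not tested.

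All 41 genes were expressed in every library and all passed the filter on low counts, which left 19316 genes. The lowest single count was 176, for POLE2, and the highest 10784, for MCM7. Per length, in TPM, which scales counts to exonic length and library size, parental cells held most of PCNA, the sliding clamp, at 1194 ± 88.3 TPM (SD, n = 2). TYMS, which makes thymidylate, followed at 646 ± 21.4 TPM, and the helicase subunits MCM7 at 490.3 ± 43.9 TPM and MCM3 at 487 ± 44.9 TPM did not differ beyond their spread. The lowest level in TPM was that of CCND2, a D-type cyclin, at 9.54 ± 1.56 TPM, below POLE2, a subunit of the leading-strand polymerase, at 20.7 ± 2.22 TPM. In CPM their order was reversed, with parental means of 19.0 CPM for CCND2 and 15.3 CPM for POLE2. Lengths count all annotated exons of a gene, used or not, and levels between genes are approximate to that extent. They were 9155 bases for RRM2, 7988 for CCND2, 7268 for MCM5 and 4386 for MCM7. In TPM MCM7 stood 3.75 to 5.19 times above MCM5 across the 16 libraries.

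**Figure D1:**
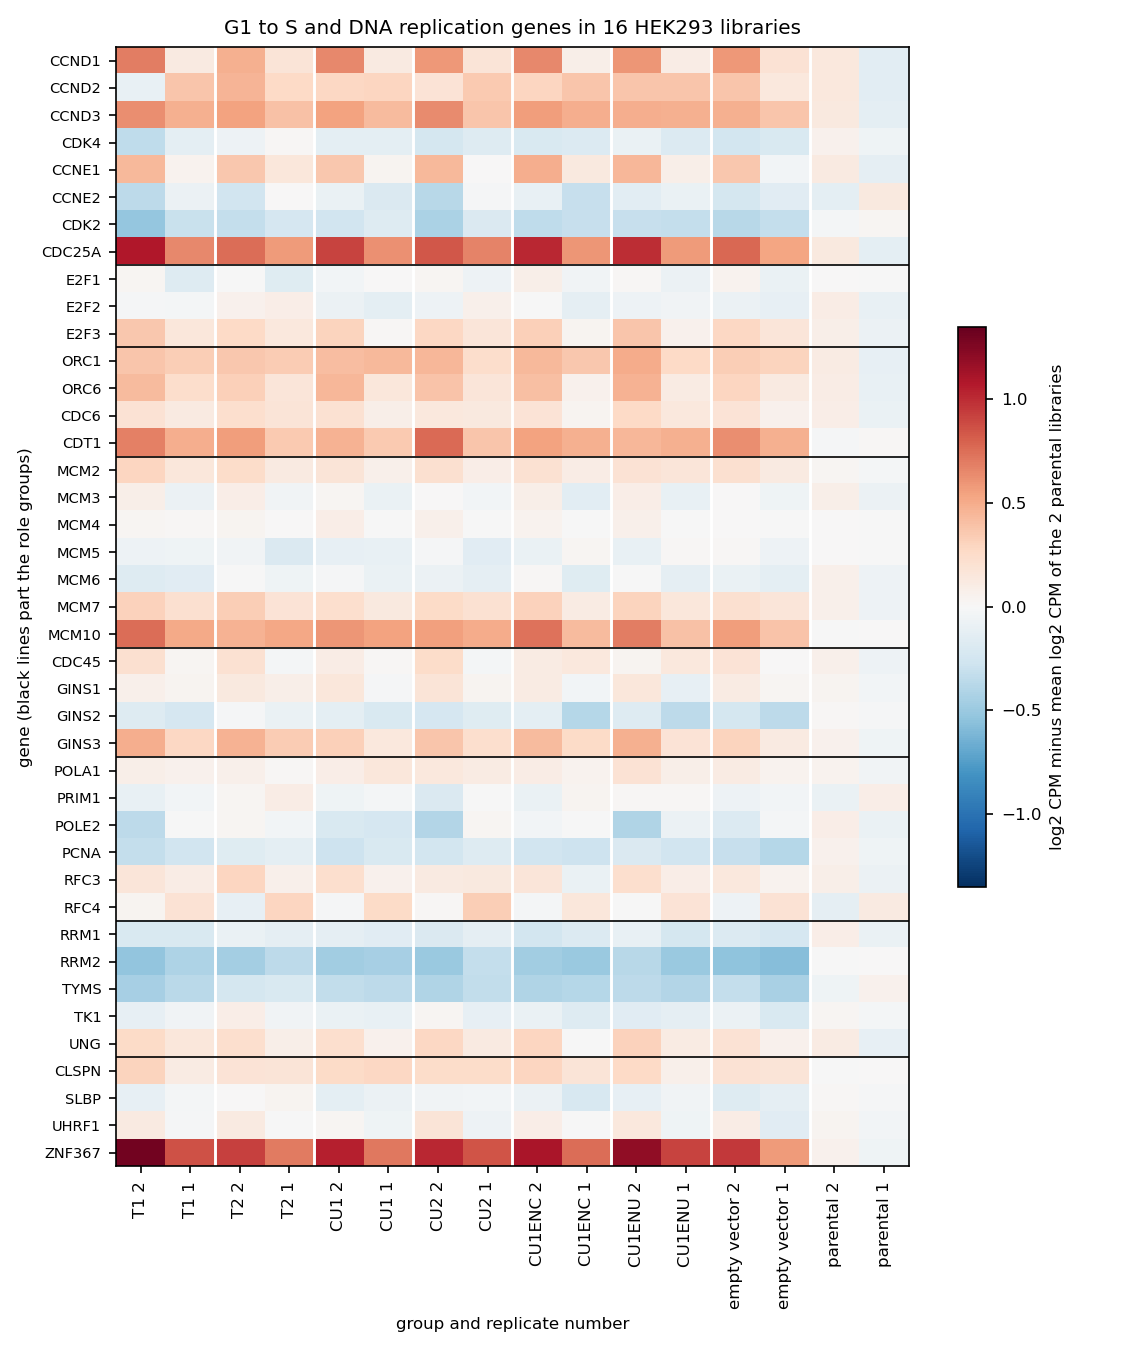
Heat map of the 41 genes (rows, black lines parting the role groups) in the 16 libraries (columns, transfected groups left and parental right, replicate 2 left of replicate 1). Colour gives log2 CPM minus the mean log2 CPM of the 2 parental libraries; CCND3, CDC25A, CDT1, MCM10 and ZNF367 are red and RRM2 and TYMS blue in all 14 transfected libraries.

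The promoters of these genes were read first, because E2F sites are what the group is known to share and the choice of genes by name did not use sequence. Of the 41 genes, 35 had a window in RefSeq's table for GRCh38.p14, running from 250 bases before to 50 bases after the start site; MCM4, CCND1, CDK2, MCM5, CCND2 and CCNE2 had none. An E2F motif, spelled TTTCCCGC, TTTGGCGC, TTTCGCGC or TTTGCCGC on either strand, stood in 21 of the 35 windows (60.0%). The same letters stood in 1164 of all 35116 windows (3.31%) and in 640 of the 12885 windows of other genes tested here (4.97%). A CCAAT box (CCAAT) stood in 60.0% of the windows, against 36.0% of those of other tested genes, and a GC box (GGGCGG) in 80.0%, against 68.4%. The CHR element (TTTGAA), known from genes that peak later in the cycle, stood in 5.71% of the windows, against 9.88%. In PCNA and CLSPN the E2F match overlapped a GC box and in MCM7 a CCAAT box; a match is only a string of letters and does not show that a factor is bound. Members' windows had a median GC content of 66.0%, against 58.7% over all windows.

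The 5 windows below belong to genes that passed the tests described further on, 3 of them higher and 2 lower in transfected cells, and are shown because matches stand on both sides. Each is the 250 bases before the start site in GRCh38.p14, 5′ to 3′ on the gene's strand, with E2F and CCAAT matches of either strand in capitals.
ZNF367, chr9:96418371-96418620, minus strand: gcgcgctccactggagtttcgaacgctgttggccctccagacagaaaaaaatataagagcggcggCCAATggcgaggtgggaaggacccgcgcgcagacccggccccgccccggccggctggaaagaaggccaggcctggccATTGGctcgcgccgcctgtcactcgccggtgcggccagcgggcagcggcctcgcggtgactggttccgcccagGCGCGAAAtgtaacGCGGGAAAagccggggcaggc
CDC25A, chr3:48188418-48188667, minus strand: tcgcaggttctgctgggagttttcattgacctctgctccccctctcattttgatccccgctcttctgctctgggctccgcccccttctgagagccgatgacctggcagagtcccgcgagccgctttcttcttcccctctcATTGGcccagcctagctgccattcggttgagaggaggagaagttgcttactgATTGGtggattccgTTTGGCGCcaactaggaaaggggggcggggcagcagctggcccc
CDT1, chr16:88803539-88803788, plus strand: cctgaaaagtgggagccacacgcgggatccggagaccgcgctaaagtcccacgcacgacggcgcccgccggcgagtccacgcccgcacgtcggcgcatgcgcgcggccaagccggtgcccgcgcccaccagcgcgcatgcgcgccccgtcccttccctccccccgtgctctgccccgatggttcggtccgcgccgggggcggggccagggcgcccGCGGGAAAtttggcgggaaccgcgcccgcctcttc
TYMS, chr18:657403-657652, plus strand: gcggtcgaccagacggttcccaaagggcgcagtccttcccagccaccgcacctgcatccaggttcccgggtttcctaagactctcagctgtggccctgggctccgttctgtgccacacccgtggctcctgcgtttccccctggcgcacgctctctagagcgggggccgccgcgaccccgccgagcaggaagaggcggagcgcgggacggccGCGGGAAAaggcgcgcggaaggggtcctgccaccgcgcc
PCNA, chr20:5126623-5126872, minus strand: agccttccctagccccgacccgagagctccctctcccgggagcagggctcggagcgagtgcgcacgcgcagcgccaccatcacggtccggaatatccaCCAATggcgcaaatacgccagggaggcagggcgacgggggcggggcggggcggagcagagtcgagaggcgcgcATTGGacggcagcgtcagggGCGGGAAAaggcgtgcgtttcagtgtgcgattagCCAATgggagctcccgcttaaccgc

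The E2F matches began at position -35 from the start site in ZNF367, -44 in CDC25A, -35 in CDT1, -39 in TYMS and -59 in PCNA. Of the 9 members that rose in transfected cells, 6 had an E2F match, and of the 4 members that fell and had a window, 3 had one. MCM10, which rose, and RRM2, which fell, had none of these letters in their windows, as had CCND3 and ORC1.

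The first question was how these genes differ between cells with the empty vector and parental cells. Plasmid, lipid and handling cannot be told apart there. With the empty vector against parental cells, 5 members rose and 4 fell in edgeR's quasi-likelihood test at an adjusted p under 0.05; over all genes tested, 9.41% rose and 6.60% fell. The median log2 fold change of the 41 members was 0.07, against 0.01 over all genes. The risers were ZNF367, CDC25A, CDT1, MCM10 and CCND3, and RRM2, TYMS, CDK2 and PCNA fell. GINS2, a GINS subunit, was just outside at an adjusted p of 0.0501, with ORC1 next at 0.0539. With the replicate number as a block, 13 members rose and 7 fell, where 18.4% of all genes rose and 15.9% fell; all 9 calls were among these 20. Apart from RRM2, each of the 9 lost its call when 1 library was left out. Leaving out parental replicate 1 ended the calls of CCND3, CDK2, CDC25A, MCM10, TYMS and ZNF367, and parental replicate 2 those of CDK2, CDC25A, CDT1, MCM10, PCNA and ZNF367. Leaving out empty vector replicate 1 ended those of CCND3, CDK2, CDC25A, PCNA and TYMS, and empty vector replicate 2 those of CCND3, CDK2, CDC25A, CDT1, MCM10 and ZNF367. The fold changes then ran from 0.29 to 0.56 for CCND3, -0.39 to -0.32 for CDK2, 0.52 to 0.79 for CDC25A, 0.47 to 0.61 for CDT1, 0.38 to 0.55 for MCM10, -0.40 to -0.29 for PCNA, -0.44 to -0.32 for TYMS and 0.57 to 0.94 for ZNF367.

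The mean of all 7 transfected groups against parental cells rests on 14 libraries on one side and shares the same 2 parental libraries. Here 9 members rose and 5 fell, where 15.4% of all genes rose and 14.3% fell. With the replicate block 18 rose and 7 fell, where 23.1% of all genes rose and 22.5% fell. In 10 members all 14 transfected libraries lay above both parental libraries and in 4 all lay below; over all genes those shares were 16.8% and 14.9%. As shares of the 41 members, 22% rose and 12.2% fell, and 43.9% rose and 17.1% fell with the block. The share that rose with the block was thus above that of all genes. In that fit the median standard error was 0.048 for the members, against 0.104 over all genes, so equal changes pass more readily among members. No test was made of this excess. The median of the 41 was 0.09, against -0.00384 over all genes. Bulk RNA cannot tell a change in the share of cells in a phase from a change in RNA per cell.

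**Figure D2:**
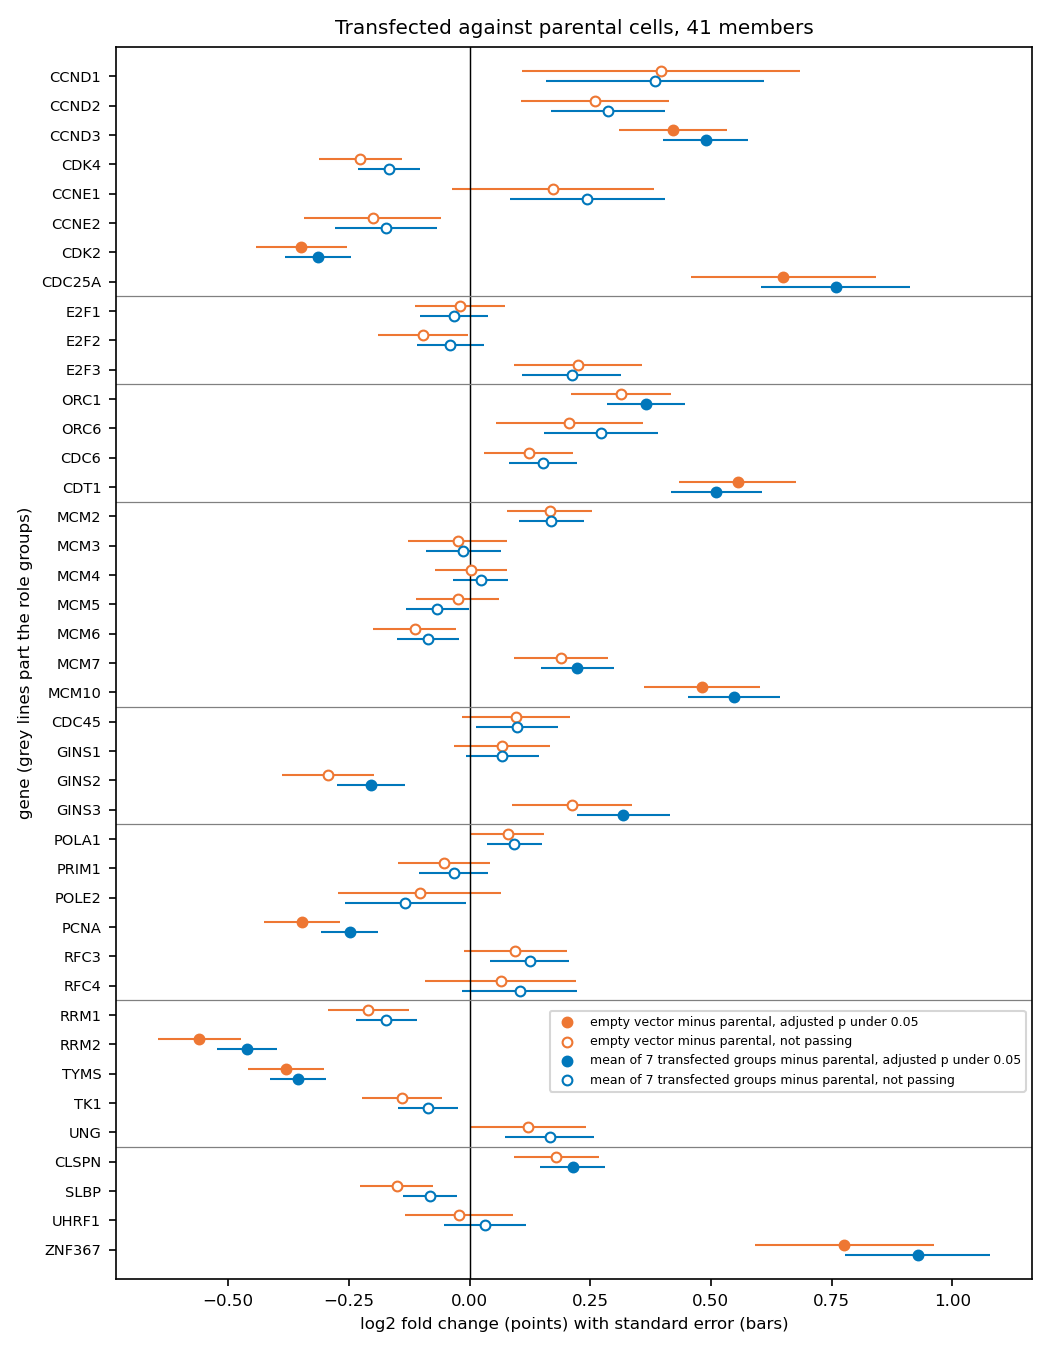
Log2 fold changes (points) with standard errors (bars) of the 41 genes, for the empty vector (orange) and for the mean of the 7 transfected groups (blue), each against parental cells; filled points passed an adjusted p of 0.05. ZNF367 lies farthest right at 0.93 and RRM2 farthest left at -0.56.

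Among the 8 genes of G1 control, CDC25A and CCND3 rose and CDK2 fell. CDC25A, the phosphatase that removes inhibitory phosphates from CDK2, had 100.7 and 119 CPM with the empty vector and a lowest, median and highest value of 100.7, 114 and 148 CPM over the 14 transfected libraries, against 63.8 and 76.4 CPM in parental libraries. Every transfected library was above both parental ones. The log2 fold change was 0.65 ± 0.19 (SE) for the empty vector (adjusted p = 0.0373) and 0.76 ± 0.15 for all transfected groups (adjusted p = 0.00297). CCND3, a D-type cyclin, had 63.5 and 68.7 CPM with the empty vector and 63.5, 68.8 and 76.7 CPM over the transfected libraries, against 44.8 and 53.9 CPM in parental libraries, again with no overlap. It rose by 0.42 ± 0.11 with the empty vector (adjusted p = 0.0193) and by 0.49 ± 0.09 over all transfected groups (adjusted p = 0.000917).

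CDK2, the partner kinase of cyclins E and A, ran the other way, at 120.1 and 116 CPM with the empty vector and 105, 121 and 133 CPM over the transfected libraries, against 153 and 148 CPM in parental libraries. No transfected library reached a parental one, and CDK2 fell by 0.35 ± 0.09 with the empty vector (adjusted p = 0.0215) and by 0.31 ± 0.07 over all transfected groups (adjusted p = 0.00372). The phosphatase and the kinase it acts on moved in opposite directions in the same libraries. CCND1, CCND2, CCNE1, CDK4 and CCNE2 passed neither test, with log2 fold changes over all transfected groups of 0.38 ± 0.23, 0.29 ± 0.12, 0.24 ± 0.16, -0.17 ± 0.06 and -0.17 ± 0.11. CCND1 differed between its replicates, at 129.9 and 170.4 CPM with the empty vector, against 103 and 125 CPM in parental libraries; with the replicate block its adjusted p was 3.77e-07, and CCND2, CCNE1 and CDK4 then passed as well. Leaving out parental replicate 1 gave CDC25A 0.63 and CDK2 -0.29 over all transfected groups, with adjusted p of 0.0708 and 0.0690.

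The 3 activating E2F factors did not pass in either comparison. E2F1 had 107 and 118 CPM with the empty vector, against 114 CPM in each parental library, a log2 fold change of -0.02 ± 0.09 with a 95% interval from -0.22 to 0.18. E2F2 had 35.5 and 36.1 CPM, against 35.7 and 40.9 CPM in parental libraries, and E2F3 172 and 187 CPM, against 146 and 162 CPM. E2F3 was the one of the 3 that passed with the replicate block, at 0.21 ± 0.05 over all transfected groups (adjusted p = 0.000371).

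All 4 origin and licensing genes had positive fold changes. CDT1, which brings the MCM helicase to ORC, had 157 and 175 CPM with the empty vector and 144, 158 and 192 CPM over the transfected libraries, against 114 and 112 CPM in parental libraries. Its groups did not overlap, and it rose by 0.56 ± 0.12 with the empty vector (adjusted p = 0.00691) and by 0.51 ± 0.10 over all transfected groups (adjusted p = 0.00123). ORC1, the largest subunit of the origin recognition complex, had 44.3 and 45.3 CPM with the empty vector and 42.4, 46.3 and 50.8 CPM over the transfected libraries, against 33.3 and 38.8 CPM in parental libraries. It passed for all transfected groups, at 0.37 ± 0.08 (adjusted p = 0.00387), but not without parental replicate 1, where it was 0.26 (adjusted p = 0.122). ORC6 and CDC6 were at 0.27 ± 0.12 and 0.15 ± 0.07 and passed only with the replicate block (adjusted p = 6.48e-05 and 0.00492).

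Of the 6 subunits of the MCM helicase MCM7 alone passed, and differences between subunits were not tested. It passed for all transfected groups, with 577, 622 and 674 CPM, against 509 and 562 CPM in parental libraries, a rise of 0.22 ± 0.08 (adjusted p = 0.0370). That call was lost without either parental library (lowest 0.15 and highest 0.30 over the libraries left out) and also without replicate 2 of T1, T2, CU1 or CU2 or either empty vector library, and with no low-count filter. MCM2 lay above both parental libraries in all 14 transfected ones, at 203, 217 and 237 CPM, against 189.7 and 198 CPM, with 0.17 ± 0.07 (adjusted p = 0.0737), and passed with the replicate block for all transfected groups (adjusted p = 0.00123) and for the empty vector (adjusted p = 0.0177). MCM3, MCM4, MCM5 and MCM6 stood at -0.01 ± 0.08, 0.02 ± 0.06, -0.07 ± 0.06 and -0.09 ± 0.06, so that the 95% intervals of MCM4 reached from -0.10 to 0.15 and those of MCM5 from -0.21 to 0.07. MCM10, a separate factor that helps to start the loaded helicase, had 99.5 and 113 CPM with the empty vector and 99.5, 110.1 and 128 CPM over the transfected libraries, against 76.4 and 75.7 CPM in parental libraries. It rose by 0.48 ± 0.12 with the empty vector (adjusted p = 0.0147) and by 0.55 ± 0.09 over all transfected groups (adjusted p = 0.000740).

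Among CDC45 and the GINS subunits, 1 member rose and 1 fell. GINS3 had 34.3, 38.9 and 44.3 CPM over the transfected libraries, against 30.1 and 32.8 CPM in parental libraries, and rose by 0.32 ± 0.10 (adjusted p = 0.0228). GINS2 had 62.0, 70.8 and 79.9 CPM, against 79.7 and 82.0 CPM in parental libraries, and fell by 0.20 ± 0.07 (adjusted p = 0.0415), with only 1 transfected library, T2 replicate 2, reaching the parental range. GINS1 and CDC45 stood at 0.07 ± 0.08 and 0.10 ± 0.09 and did not pass. The calls of GINS2 and GINS3 were both lost without parental replicate 1 or without parental replicate 2, with fold changes from -0.22 to -0.18 for GINS2 and from 0.26 to 0.38 for GINS3 over the libraries left out. That of GINS2 was also lost in DESeq2, with no low-count filter, and without T1, T2, CU1 or CU1ENU replicate 1 or T2 or CU2 replicate 2.

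Of the 6 genes for polymerases, clamp and clamp loader, only PCNA passed. PCNA had 319 and 337 CPM with the empty vector and 319, 348 and 381 CPM over the transfected libraries, against 401 and 433 CPM in parental libraries. It fell by 0.35 ± 0.08 with the empty vector (adjusted p = 0.00877) and by 0.25 ± 0.06 over all transfected groups (adjusted p = 0.00565), with no overlap; without parental replicate 2 the second value was -0.19 (adjusted p = 0.115). POLA1, the catalytic subunit of polymerase alpha, stood at 0.09 ± 0.06, its primase partner PRIM1 at -0.03 ± 0.07, POLE2 at -0.13 ± 0.13, and the loader subunits RFC3 and RFC4 at 0.12 ± 0.08 and 0.10 ± 0.12. Of these only RFC3 passed with the replicate block (adjusted p = 0.0470).

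The genes of deoxynucleotide supply held the largest falls. RRM2, the small subunit of ribonucleotide reductase that sets its activity in S phase, had 280.3 and 286 CPM with the empty vector and 280.3, 302 and 333 CPM over the transfected libraries, against 418 and 416 CPM in parental libraries. It fell by 0.56 ± 0.09 with the empty vector (adjusted p = 0.000991) and by 0.46 ± 0.06 over all transfected groups (adjusted p = 0.000138), and no transfected library came near the parental level. Of the 9 members called with the empty vector, RRM2 alone kept its call under every alternative tried. TYMS had 289 and 311 CPM with the empty vector and 286, 304 and 337 CPM over the transfected libraries, against 405 and 375 CPM in parental libraries, and fell by 0.38 ± 0.08 (adjusted p = 0.00533) and by 0.36 ± 0.06 (adjusted p = 0.000494).

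RRM1, the large subunit of ribonucleotide reductase, had 303 and 313 CPM with the empty vector, against 333 and 379 CPM in parental libraries, and missed the threshold at -0.17 ± 0.06 over all transfected groups (adjusted p = 0.0523). TK1, which salvages thymidine, stood at -0.09 ± 0.06 and UNG, which removes uracil from DNA, at 0.17 ± 0.09, and neither passed. RRM1 and UNG passed with the replicate block (adjusted p = 0.00185 and 0.00324). The treatment of multi-mapping reads is not given in the sources used here, and genes with processed pseudogenes, PCNA and RRM2 among them, are uncertain to that extent. TYMS shares 47.5% of its exonic bases with genes on the opposite strand, so its count rests on the strand marking. Other members with such overlap include CDK4, at 44.25%, and CCNE2, at 37.14%. CCND2 shares 12.51% and PRIM1 17.55% of exonic bases with other genes on the same strand, where strand marking does not part them.

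Among the companions of S phase, ZNF367, a zinc finger factor, had the largest rise of all 41. It had 75.8 and 98.7 CPM with the empty vector and 75.8, 95.9 and 125 CPM over the transfected libraries, against 48.8 and 53.1 CPM in parental libraries. The groups were far apart, and ZNF367 rose by 0.78 ± 0.19 with the empty vector (adjusted p = 0.0138) and by 0.93 ± 0.15, or 1.90-fold, over all transfected groups (adjusted p = 0.000664). CLSPN, the adaptor that activates CHK1 at stalled forks, had 116, 129 and 136 CPM over the transfected libraries, against 111 and 110.2 CPM in parental libraries, and rose by 0.21 ± 0.07 (adjusted p = 0.0278), a call lost without either parental library and with no low-count filter. SLBP, which binds histone messages, and UHRF1, which guides maintenance methylation, stood at -0.08 ± 0.06 and 0.03 ± 0.08 and did not pass.

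**Figure D3:**
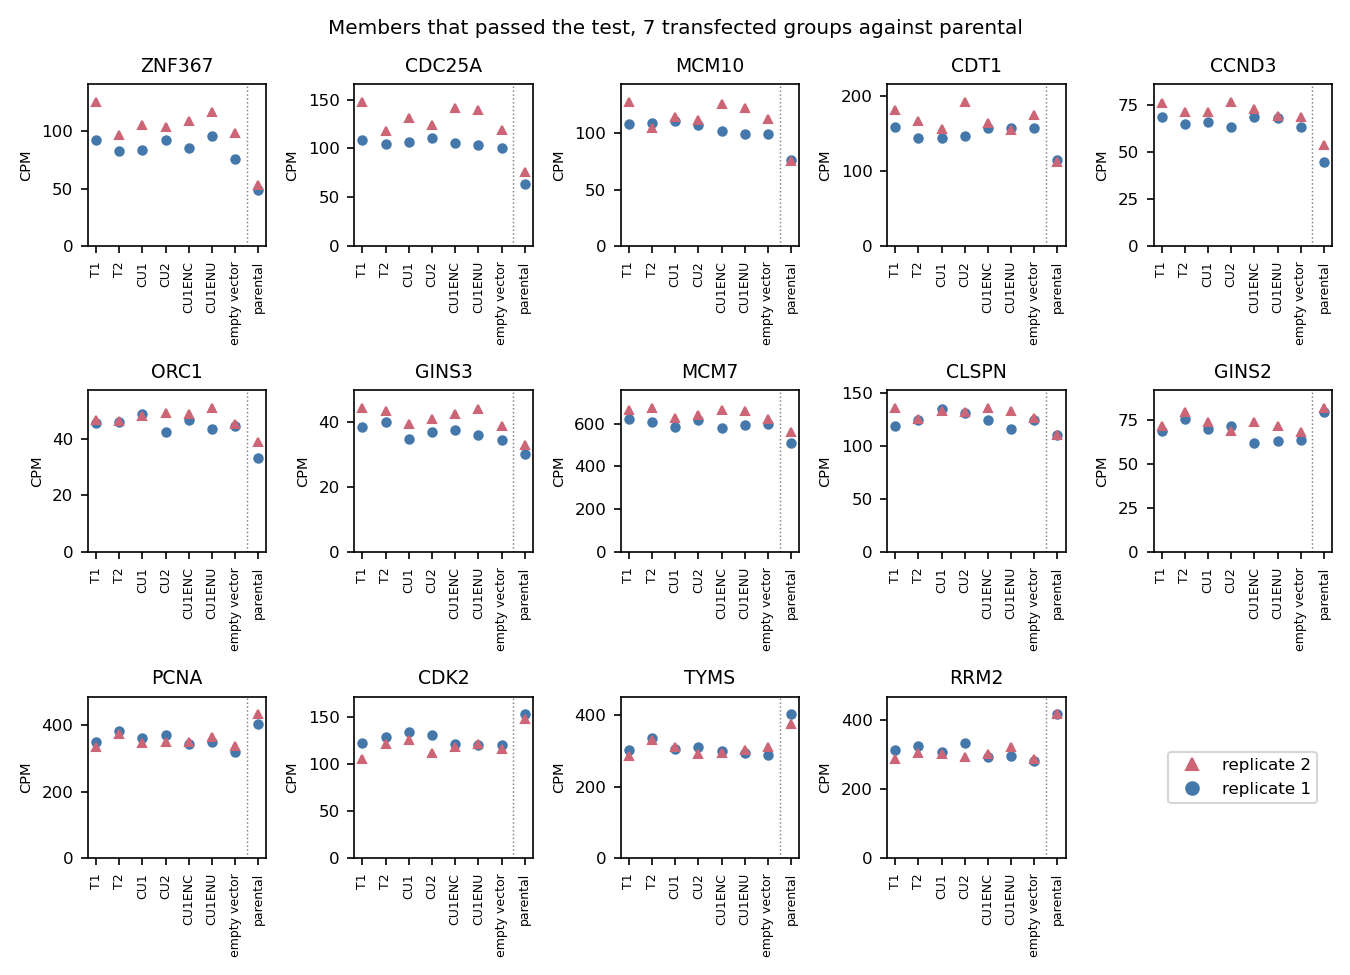
CPM in each library (triangles replicate 2, circles replicate 1; the dotted line parts the 7 transfected groups from parental) for the 14 genes that passed in the mean of the transfected groups against parental cells. The 9 risers come first and the 5 fallers last; parental points lie below or above the transfected ones in all panels but GINS2, where T2 reaches the parental range.

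Within the replicate numbers, which the data show to pair libraries, the empty vector values of RRM2 were -0.54 in replicate 2 and -0.58 in replicate 1, and those of TYMS -0.27 and -0.49. ZNF367 stood at 0.89 in replicate 2 and 0.64 in replicate 1, CDC25A at 0.64 and 0.66, and CDT1 at 0.65 and 0.46.

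Other genes of the same processes, 113 outside the 41 and without the separate list of G2 and mitosis genes, gave 5 that rose and 12 that fell with the empty vector, and 12 and 23 over all transfected groups. Over all genes 9.41% rose and 6.60% fell with the empty vector, and 15.4% and 14.3% over all transfected groups. More of these 113 fell than rose, whereas more of the 41 members rose than fell. Among 30 cyclins, CDKs and G1 regulators, 2 rose and 5 fell with the empty vector. This list is not confined to G1. CDK1 and CDC25B, both among the 5 that fell, are also known from G2 and mitosis. CDKN2D, an inhibitor of CDK4 and CDK6, was at 21.6 CPM against 11.0 CPM in parental cells, with 0.97 ± 0.12 (adjusted p = 0.000213). CDKN2C, an inhibitor of the same kinases, was at 80.8 CPM against 134 CPM, with -0.73 ± 0.10 (adjusted p = 0.000557). CDK1 and RBL2, a relative of RB, fell by 0.59 ± 0.09 and 0.47 ± 0.08 (adjusted p = 0.00116 and 0.00155). Of 17 origin factors none rose and GINS4, the remaining GINS subunit, fell by 0.27 ± 0.08 (adjusted p = 0.0366), in the direction of GINS2 and not of GINS3.

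Of 25 further fork factors none rose and 3 fell, namely TIMELESS, a fork protection factor, by 0.46 ± 0.09, RPA1, which binds single-stranded DNA, by 0.32 ± 0.08, and LIG1, which joins Okazaki fragments, by 0.31 ± 0.08 (adjusted p = 0.00306, 0.0164 and 0.0171). Of 15 genes of nucleotide supply SHMT2, a mitochondrial one-carbon enzyme, rose by 0.43 ± 0.08 and DUT, which removes dUTP, fell by 0.25 ± 0.08 (adjusted p = 0.00277 and 0.0472). Of 16 checkpoint genes CHEK1 rose by 0.42 ± 0.09 and FANCI fell by 0.42 ± 0.10 (adjusted p = 0.00572 and 0.0122), and of 10 chromatin genes DNMT1, the maintenance methyltransferase, rose by 0.53 ± 0.09 and the histone chaperone ASF1B fell by 0.36 ± 0.11 (adjusted p = 0.00132 and 0.0317). Of 30 G2 and mitosis genes none rose and 6 fell with the empty vector, led by TOP2A at -0.58 ± 0.08, ASPM at -0.49 ± 0.07 and CENPF at -0.38 ± 0.08 (adjusted p = 0.000498, 0.000867 and 0.00476), followed by UBE2C at -0.38 ± 0.09 (adjusted p = 0.00917), and 11 fell over all transfected groups; their median with the empty vector was -0.13, against 0.07 for the 41 members. No test was made of the difference between these lists.

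The second question was whether a transcript of LINC01016 changes these genes beyond its plasmid. No member passed in edgeR for the mean of the 6 transcripts against the empty vector, where 0.0104% of all genes did. None passed for T1, T2, CU1, CU1ENC or CU1ENU, where again 0.0104% of all genes did, or for CU2, where 0.00518% did, and DESeq2 called no member in any of these. At an unadjusted p under 0.05 the mean of the transcripts gave 0 members (1.50% of all genes), T1 gave 0 (1.09%), T2 gave 4 (2.32%), CU1 gave 0 (1.63%), CU2 gave 0 (1.23%), CU1ENC gave 0 (0.916%) and CU1ENU gave 0 (1.28%). The T2 members were GINS2, PCNA, SLBP and CDK4. Against the mean of the other 5 transcripts, T2 passed for 0 members and 0% of all genes, and at an unadjusted p under 0.05 for 3 members (2.33% of all genes). An F-test over the 6 transcripts passed for 0 members and 0% of all genes, and for 0 members at an unadjusted p under 0.05 (0.507% of all genes). With the replicate block no member passed in any of these either, and at an unadjusted p under 0.05 it gave 4 members for the mean of the transcripts (4.03% of all genes), 3 for T1 (2.94%), 8 for T2 (7.58%), 1 for CU1 (4.83%), 3 for CU2 (3.03%), 2 for CU1ENC (2.18%) and 3 for CU1ENU (3.56%). In the same fit it gave 8 members for T2 against the other transcripts (7.91%) and 3 in the F-test (3.19%).

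Fold changes against the empty vector were small and mostly positive. They were above 0 for 35 of the 41 members for the mean of the transcripts, with a median of 0.04, against 48.4% of all genes. For T1, T2, CU1, CU2, CU1ENC and CU1ENU they were above 0 for 29, 34, 32, 34, 27 and 32 members. The medians were 0.03, 0.07, 0.04, 0.04, 0.03 and 0.05. Of all genes 49.0% to 50.2% were above 0 for single transcripts. All of these comparisons share the 2 empty vector libraries, and the medians over all genes ran from -0.00428 to 0.000772. For single transcripts the members' fold changes ran from -0.14 (CU1) to 0.32 (T1). The median standard error of the members was 0.10 for each single transcript. The widest 95% intervals reached to -0.71, for CCND1 with T2, and to 0.71, for ZNF367 with T1.

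**Figure D4:**
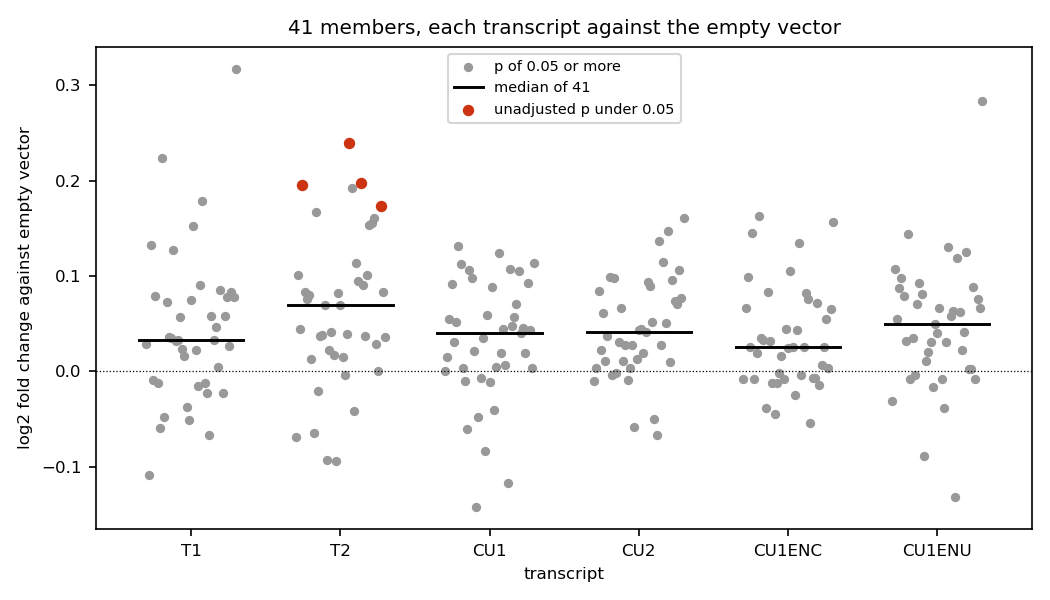
Log2 fold change of each of the 41 genes (points) for each transcript against the empty vector, with the median as a black line; red points had an unadjusted p under 0.05. Medians lie between 0.03 and 0.07, and the 4 red points are GINS2, PCNA, SLBP and CDK4 with T2.

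T2 stood highest of the 7 transfected groups for 16 members and the empty vector lowest for 16. The same counts were not made over all genes tested, so no share stands beside them. GINS2 had 76.0 and 79.9 CPM with T2, against 63.5 and 68.5 CPM with the empty vector, and between 62.0 and 74.0 CPM in the other 10 transcript libraries. Both T2 libraries were above every other transfected one, with 0.24 ± 0.10 against the empty vector (adjusted p = 1.00) and 0.16 ± 0.07 against the other transcripts (adjusted p = 1.00). PCNA had 381 and 371 CPM with T2, 348 and 335 CPM with T1, 362 and 345 CPM with CU1, 371 and 350.0 CPM with CU2, 344 and 348 CPM with CU1ENC and 348 and 364 CPM with CU1ENU, against 319 and 337 CPM with the empty vector. Its T2 value was 0.20 ± 0.08 (adjusted p = 1.00), and its values for the mean of transcripts, CU1, CU2, CU1ENC and CU1ENU were 0.12 ± 0.06, 0.11 ± 0.08, 0.14 ± 0.08, 0.08 ± 0.08 and 0.12 ± 0.08. T1 had the lowest PCNA mean of the transcripts, at 341 CPM against 328 CPM with the empty vector, and its replicate 2 lay within the empty vector's range.

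SLBP had 102 and 99.8 CPM with T2 and 96.7 and 96.0 CPM with CU2, against 91.2 and 87.9 CPM with the empty vector, at 0.17 ± 0.08 for T2 (adjusted p = 1.00) and 0.11 ± 0.08 for CU2. TYMS had 337 and 330.2 CPM with T2, against 286 to 311 CPM in the other transcript libraries and 289 and 311 CPM with the empty vector, at 0.15 ± 0.06 against the other transcripts (adjusted p = 1.00). CDK4, the partner of D-type cyclins, had 193 and 182 CPM with T2, against 151 to 179.9 CPM in the other transcript libraries and 166 and 162 CPM with the empty vector, at 0.15 ± 0.07 against the other transcripts (adjusted p = 1.00). In GINS2, PCNA, TYMS and CDK4 both T2 libraries lay nearer to the parental level than the empty vector did, and in the F-test CDK4, TYMS and GINS2 had the lowest p, all with adjusted p of 1.00. The 4 members that fell with the empty vector were all positive in T2 against the other transcripts and the 5 that rose were all negative. Of the members called over all transfected groups, all 5 that fell were positive there, as were 2 of the 9 that rose. Over the 41 members 24 were positive, against 48.9% of all genes. This pattern was seen in the data and has no test. The same counts were not made among all genes called in these comparisons. Whether the pattern is particular to these members is therefore not known.

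For the other transcripts the leading members differed little from the empty vector. RRM2 had 313 and 288 CPM with T1, 326 and 304 CPM with T2, 307 and 302 CPM with CU1, 333 and 294 CPM with CU2, 294 and 301 CPM with CU1ENC and 295 and 322 CPM with CU1ENU, against 280.3 and 286 CPM with the empty vector. All 12 transcript libraries were above both of the empty vector, yet the fold change for their mean was 0.11 ± 0.07 (adjusted p = 1.00), with 0.15 ± 0.09 for CU2 and 0.13 ± 0.09 for CU1ENU. ZNF367 had 92.1 and 125 CPM with T1 and 95.6 and 117 CPM with CU1ENU, against 75.8 and 98.7 CPM with the empty vector, at 0.32 ± 0.18 and 0.28 ± 0.18, both with adjusted p of 1.00. Replicate 1 of both transcripts lay below replicate 2 of the empty vector, while within each replicate number both transcripts were above it. With the replicate block the values were 0.31 ± 0.07 for T1 (adjusted p = 0.423) and 0.29 ± 0.07 for CU1ENU (adjusted p = 0.999).

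GINS3 had 38.3 and 44.3 CPM with T1 and 37.6 and 42.4 CPM with CU1ENC, against 34.3 and 38.6 CPM with the empty vector, at 0.18 ± 0.12 and 0.13 ± 0.12. MCM10 had 108 and 128 CPM with T1, against 99.5 and 113 CPM, at 0.15 ± 0.12. In both genes the lower T1 library was within the empty vector's range. CDK2 had 133 and 126 CPM with CU1, against 120.1 and 116 CPM with the empty vector, at 0.13 ± 0.09, and GINS2 69.9 and 73.9 CPM, at 0.12 ± 0.10. CCND3 had 68.8 and 72.8 CPM with CU1ENC, against 63.5 and 68.7 CPM with the empty vector, at 0.10 ± 0.11. None of these passed. CDK2 and GINS2 with CU1 and CCND3 with CU1ENC did not overlap the empty vector. They were named because they were among the members of lowest p for their transcript. How often all genes tested are separated in this way was not counted. An exact permutation of 2 against 2 libraries cannot go below p = 0.333, so this separation does not by itself show a difference.

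The libraries numbered 2 were also compared with those numbered 1, over all 8 groups. In the fit with group and replicate number, 22 of the 41 members (53.7%) were higher and 2 (4.88%) lower in replicate 2 against replicate 1 at an adjusted p under 0.05, where 18.0% of all genes were higher and 17.9% lower. The median of the 41 was 0.10, against -0.01 over all genes, and 31 of 41 were above 0, against 47.2% of all genes. The median standard error was 0.032 for the members, against 0.070 over all genes, so equal differences pass more readily among members. No label says what the numbers mark. The test takes the 8 groups as replicates of each number, so its p-values measure how steady the difference was across groups. They do not measure the spread between further sets of libraries. Replicate 2 libraries counted fewer genes, 25529 to 26293 against 26572 to 27461 in replicate 1, at totals of 15468756 to 16375455 counts against 15040770 to 17255935; the part of this in the result was not tested.

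The cyclins led. CCND1 had 125, 171 and 183 CPM (lowest, median and highest of 8 libraries) in replicate 2, against 103, 123 and 129.9 CPM in replicate 1, a difference of 0.45 ± 0.03 (adjusted p = 4.46e-12). CCNE1 had 38.9, 47.3 and 50.4 CPM in replicate 2, against 33.0, 36.9 and 39.7 CPM, at 0.34 ± 0.04 (adjusted p = 4.57e-08). Both were higher in replicate 2 within all 8 groups, and their ranges met only through the low parental libraries. CDC25A had 76.4, 128 and 148 CPM in replicate 2, against 63.8, 105 and 111 CPM, at 0.30 ± 0.03 (adjusted p = 1.57e-08), and CCND3 53.9, 71.5 and 76.7 CPM, against 44.8, 65.3 and 68.8 CPM, at 0.14 ± 0.04 (adjusted p = 0.00170). CDK2 was lower, with 105, 119.6 and 148 CPM in replicate 2, against 120.1, 126 and 153 CPM, at -0.09 ± 0.03 (adjusted p = 0.0178), a call lost in 6 of 21 alternatives. E-type cyclin CCNE2, at -0.13 ± 0.05, did not pass, nor did CCND2, which was higher in replicate 2 in 4 of 8 groups.

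E2F3 had 162, 188 and 198 CPM in replicate 2, against 146, 165 and 172 CPM in replicate 1, at 0.20 ± 0.03 (adjusted p = 2.85e-06), and E2F1 111, 116 and 120.3 CPM, against 101.4, 108 and 114 CPM, at 0.10 ± 0.03 (adjusted p = 0.0143). E2F3 was higher in replicate 2 in all 8 groups and E2F1 in 7; the E2F1 call was lost without T1 replicate 2 or T1 replicate 1. Among licensing genes ORC6 had 72.8, 89.1 and 94.1 CPM, against 63.0, 74.7 and 80.1 CPM, at 0.24 ± 0.03 (adjusted p = 7.38e-07). CDC6 had 148, 158 and 166 CPM, against 129.9, 149 and 156 CPM, at 0.11 ± 0.03 (adjusted p = 0.00449), and CDT1 112, 166 and 192 CPM, against 114, 152 and 158 CPM, at 0.13 ± 0.04 (adjusted p = 0.00611). CDT1 was higher in replicate 2 in 6 of 8 groups and not in parental cells.

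Of the helicase genes 5 of 7 were higher in replicate 2. MCM3 had 442, 465 and 469 CPM in replicate 2, against 401, 419 and 429 CPM in replicate 1, with no overlap, at 0.13 ± 0.03 (adjusted p = 0.000251). MCM7 had 562, 651 and 674 CPM, against 509, 597 and 622 CPM, at 0.12 ± 0.03 (adjusted p = 0.000593), and MCM2 198, 224 and 237 CPM, against 189.7, 209 and 217 CPM, at 0.10 ± 0.03 (adjusted p = 0.00447). MCM2, MCM3, MCM4 and MCM7 were each higher in replicate 2 within all 8 groups, though MCM4, at 0.05 ± 0.03, did not pass. MCM10 had 75.7, 114 and 128 CPM, against 76.4, 105 and 111 CPM, at 0.13 ± 0.04 (adjusted p = 0.00576), and MCM6 199, 223 and 235 CPM, against 201, 206 and 216 CPM, at 0.08 ± 0.03 (adjusted p = 0.0333).

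CDC45 and all 3 GINS members passed, GINS2 among them although it fell in transfected cells. GINS3 had 32.8, 41.6 and 44.3 CPM in replicate 2, against 30.1, 36.4 and 39.9 CPM in replicate 1, at 0.18 ± 0.04 (adjusted p = 0.000840), and GINS1 110.4, 117 and 121 CPM, against 99.5, 108 and 114 CPM, at 0.12 ± 0.03 (adjusted p = 0.00287). CDC45 had 85.3, 92.1 and 98.6 CPM, against 79.1, 83.7 and 91.8 CPM, at 0.12 ± 0.04 (adjusted p = 0.0104), and GINS2 68.5, 72.8 and 82.0 CPM, against 62.0, 69.4 and 79.7 CPM, at 0.09 ± 0.04 (adjusted p = 0.0441). The GINS2 call was lost in 14 of 21 alternatives and the MCM6 call in 10. RFC4, a clamp loader subunit, was lower in replicate 2 within all 8 groups, with 59.2, 63.4 and 65.7 CPM, against 69.9, 73.6 and 81.0 CPM and no overlap, at -0.25 ± 0.03 (adjusted p = 6.26e-07). RFC3, of the same complex, was higher, with 79.2, 84.1 and 92.2 CPM, against 70.8, 78.6 and 82.2 CPM, at 0.14 ± 0.03 (adjusted p = 0.00175).

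UNG had 116, 127 and 133 CPM in replicate 2, against 99.4, 113 and 119 CPM in replicate 1, at 0.18 ± 0.03 (adjusted p = 1.27e-05). UHRF1 had 206, 219 and 229 CPM, against 182, 196 and 202 CPM, at 0.15 ± 0.03 (adjusted p = 0.000104), and ZNF367 53.1, 104 and 125 CPM, against 48.8, 84.4 and 95.6 CPM, at 0.29 ± 0.04 (adjusted p = 5.23e-08). UHRF1 did not overlap between the numbers. PCNA, RRM2 and TYMS, which fell in transfected cells, stood at 0.00 ± 0.03, -0.03 ± 0.03 and -0.02 ± 0.03 between the numbers, with 95% intervals from -0.09, for RRM2, to 0.06, for PCNA. Of the 113 other genes of the same processes, 28 were higher in replicate 2 and 20 lower, where 18.0% of all genes were higher and 17.9% lower. Among the G2 and mitosis genes 23 of 30 were higher in replicate 2 and none lower, led by PLK1 at 0.44 ± 0.03 (adjusted p = 1.80e-13).

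**Figure D5:**
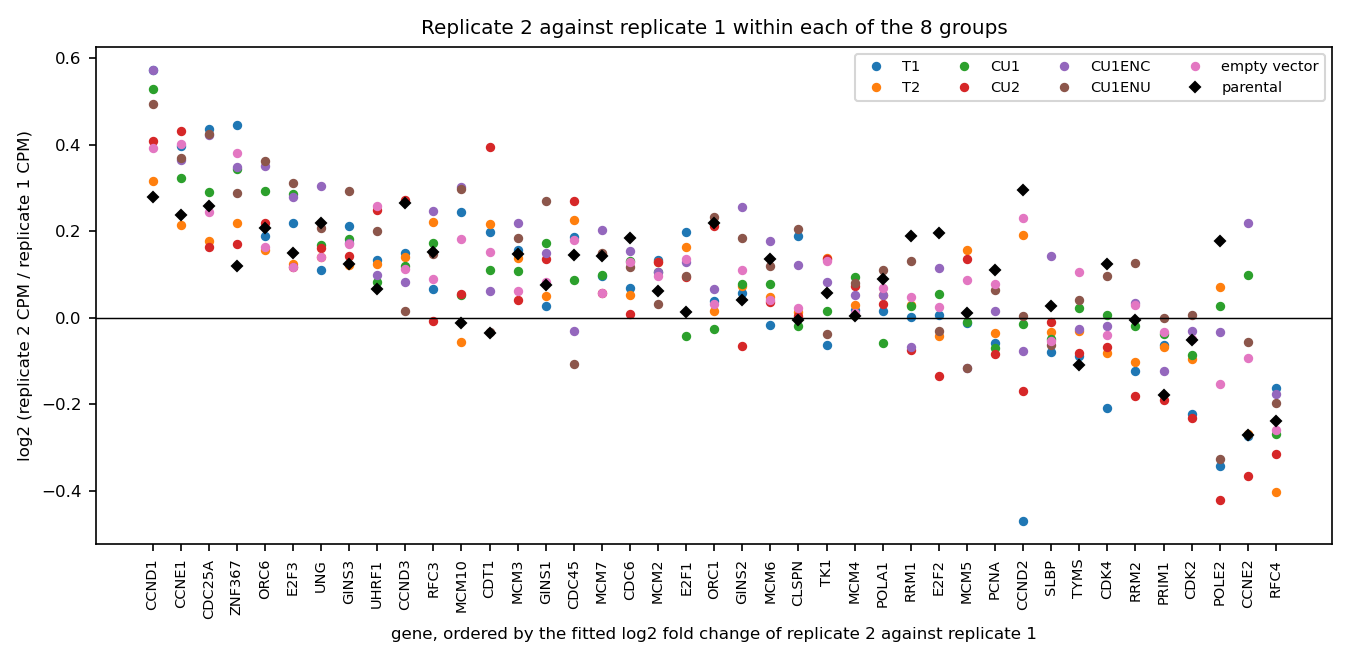
Log2 ratio of replicate 2 to replicate 1 CPM within each of the 8 groups (colours; parental as black diamonds) for the 41 genes, ordered by the fitted difference. CCND1 and CCNE1 lie above 0 and RFC4 below 0 in all 8 groups.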

How the data were processed

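Whole-number read counts per gene were deposited by the authors for 16 libraries, unnormalized. Per the file headers they were made with featureCounts 2.0.1, paired and with strand option 2, over exons by gene in Ensembl release 101; HISAT2, DESeq2 and the build GRCh38.p13 are named per the submitters' processing notes, without tool versions. Per the labels' protocols libraries were paired-end, marked strand with dUTP, and came from RNA with integrity numbers above 9. The labels do not tie replicates to separate cultures, and p-values may therefore reflect technical spread only. Counts of the 2 libraries of a group differed by a chi-square of 6.21 to 17.0 per degree of freedom, so within no group were they the same library; libraries of different groups were not compared in this way.

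Genes were tested with edgeR 4.0.16 in R 4.3.3: filterByExpr (minimum count 10, total 15) kept 19316 of 60671 genes, TMM factors ran from 0.974 to 1.03, and robust quasi-likelihood F-tests used 8 group means over all 16 libraries, with 8 residual degrees of freedom and Benjamini-Hochberg adjustment over all tested genes at 0.05. The SE was derived as the size of the log2 fold change over the root of F. CPM are TMM-scaled. An exact permutation of 2 against 2 libraries cannot go below p = 0.333, so calls rest on the shared fit. The script was tested on simulated data. Alternatives were DESeq2 size factors, no or a stricter (at least 1 CPM in 2 libraries) low-count filter, DESeq2 1.42.0, a replicate block, and each library left out in turn.

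Libraries with the same replicate number deviated from their group means together in 28 of 28 pairs of groups (r from 0.162 to 0.442), so the numbers were taken as pairs from the data, not from a label. The members, the lists of other genes, the motifs and the T2 comparison were chosen with earlier results of these data known. All 41 members were described, in full where they passed and otherwise for the 3 of lowest p, with up to 4 passing genes from each other list. The values of some blood markers are not reported here.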

Additional observations from a re-analysis of the deposited data

How the results depend on the processing

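No member changed direction among those named, under any alternative. The number of members called with the empty vector against parental cells was 9, and 20 with the replicate block; over single libraries left out it ran from 3 to 11, with 3 without either parental replicate, 4 without empty vector replicate 1 and 3 without empty vector replicate 2. For the 7 transfected groups against parental cells it was 14, and 25 with the replicate block; over libraries left out it ran from 8 to 15, with 8 without parental replicate 1 and 9 without parental replicate 2. Leaving out 1 of 2 libraries assumes that the remaining one varies like the other groups. DESeq2 called 9 and 14, and the stricter filter 11 and 17. Calls that held under all 21 alternatives were RRM2 alone of the 9 with the empty vector, and CCND3, CDT1, MCM10, RRM2, TYMS and ZNF367 of the 14 over all transfected groups. The members called between replicate numbers numbered 21 to 24 over libraries left out, 22 with DESeq2 and 23 without the parental libraries, and 20 of 24 kept their call throughout. In the transcript comparisons no alternative called a member. With 2 libraries a group, the precision rests on the spread shared over all groups. The lowest count of a member was 176, for POLE2, and the part of depth in the precision was not tested.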
